A study of Mus musculus with 18 samples.

Results

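The lipase inhibitor experiment asked how far the transcriptional response of brown adipocytes to β-adrenergic stimulation changes when triglyceride breakdown is blocked, and the interaction described here is the difference between 2 responses to isoproterenol (ISO), one with and one without lipase inhibitors. It was computed as Lipase Inh. + ISO against Lipase Inh. + Vehicle, minus ISO against Vehicle, so a value of 0 means that ISO had the same fold effect in both settings. The 4 groups were chosen by the sample titles and hold 3 samples each, 12 of the 18 samples in the series. Of 20295 genes, 12156 passed the filter on low counts and were tested, and of these 612 were called higher with ISO (ISO-induced genes) and 495 lower (ISO-repressed genes).

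All samples were BAT-LgT cells, brown preadipocytes from mouse that carry the SV40 large T antigen as 1 immortal line and were differentiated into adipocytes in culture. On day 7 the cells were kept for 1 h without inhibitors or with a mix of inhibitors of the lipases ATGL and HSL. They then received the solvent DMSO (Vehicle) or ISO at 100 nM for 3 h. The groups are Vehicle, ISO, Lipase Inh. + Vehicle and Lipase Inh. + ISO. The 6 samples left out of the interaction are the SR-3420 and Lipase Inh. + SR-3420 groups, in which a ligand of ABHD5, the co-activator of ATGL, takes the place of ISO. Both inhibitors were always given together, and the methods of the study list the HSL inhibitor as acting on the lipase MGL too. ATGL, HSL and MGL thus cannot be told apart, and the large T antigen was present in every group.

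ISO binds β-adrenergic receptors, which raise cAMP and activate protein kinase A. The kinase acts on 2 routes to the nucleus. It phosphorylates CREB, which binds cAMP response elements in promoters, and at the lipid droplet it switches on lipolysis, in which ATGL, with its co-activator ABHD5, and HSL release fatty acids from stored triglyceride. Fatty acids fuel the uncoupled respiration of brown fat, serve as ligands of PPAR receptors and, in excess, trigger stress responses.

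The 12 libraries held between 10398646 and 21205032 counts, and samples of 1 group correlated with each other at 0.987 to 0.993 on the log2 CPM scale. Mature adipocyte markers such as Adipoq, Fabp4 and Plin1 were abundant, with a summed level from 23266 to 26113 CPM (counts per 1000000 counts of the library, after TMM scaling) in the libraries without ISO, from 31132 to 32691 CPM with ISO and from 36210 to 39565 CPM in Lipase Inh. + ISO. The last difference was that of 1 gene, lipoprotein lipase (Lpl), at 12330 to 15150 CPM with ISO and 21467 to 24868 CPM in Lipase Inh. + ISO. Without Lpl, the sum of the other 11 markers was 17542 to 18895 CPM with ISO and lower, 14378 to 14743 CPM, in Lipase Inh. + ISO, beside 12147 to 15528 CPM in the libraries without ISO. The brown adipocyte markers summed to 1740 to 1842 CPM with ISO and to 1109 to 1357 CPM in Lipase Inh. + ISO, against 291 to 393 CPM without ISO. Ppargc1a, a member of this list, went from 1063, 1011 and 1167 CPM with ISO to 332, 322 and 325 CPM in Lipase Inh. + ISO. By group means, this fall exceeded that of the sum. Of the 8 members tested, 3 had an interaction below 0 and 0 above at an adjusted p-value of 0.05 or less. The median log2 effect of ISO over the list was 0.62 without and 0.75 with inhibitors. Of the markers of other cells, Ptprc and Emr1 of leukocytes, Tie1 of endothelium and Myf5 of muscle had 0 counts in all 12 libraries. The summed level of the 7 leukocyte markers stayed between 6.76 and 15.4 CPM, that of the 5 endothelial markers between 0.126 and 0.525 CPM, that of the 7 muscle markers between 9.77 and 14.0 CPM and that of the 9 preadipocyte markers between 125 and 187 CPM. None of the 12 tested members of these 4 lists had an interaction at an adjusted p-value of 0.05 or less. In bulk RNA, fewer cells that express a gene and less of its RNA per cell cannot be told apart.

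The inhibitors alone moved few genes past the fold threshold, and most of the interaction lay in the stimulated cells. Between Lipase Inh. + Vehicle and Vehicle only 6 genes were called changed (0.0494% of the genes tested), against 819 (6.74%) between Lipase Inh. + ISO and ISO. A call required an adjusted p-value of 0.05 or less by edgeR's quasi-likelihood test and a log2 fold change of 1 or more in either direction. At the adjusted p-value alone, the inhibitors without ISO raised 59 genes (0.485%) and lowered 52 (0.428%). By the rule for calls, ISO raised 612 genes (5.03%) and lowered 495 (4.07%) without inhibitors, and raised 660 (5.43%) and lowered 928 (7.63%) with them. The interaction itself was called higher in 265 genes (2.18%) and lower in 573 (4.71%). At the adjusted p-value alone it was above 0 in 1807 genes (14.9%) and below 0 in 2016 (16.6%), with a median of 0.01 over all genes tested.

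Fgf21, Insig1 and Vdr show the range of patterns. Fgf21 (mm9 chr7:52869260-52870860), a hormone of the fasting response, had 0.316, 0.541 and 0.353 CPM with Vehicle and 41.6, 55.2 and 31.9 CPM with ISO. With inhibitors it had 0.437, 0.412 and 0.867 CPM in the absence of ISO and 1.17, 1.28 and 1.27 CPM in its presence. The induction by ISO was thus large in 1 setting and not called in the other, and the interaction was -5.68 ± 0.74 (log2, SE; adjusted p-value 3.72e-06). The uncalled effect was 1.04 ± 0.48 (adjusted p-value 0.0686 by the edgeR test). It rests on 5 to 15 counts per library in Lipase Inh. + Vehicle and 13 to 25 in Lipase Inh. + ISO, and the Vehicle libraries held 4 to 7. Insig1 (chr5:28397952-28405202), which retains the sterol sensor of SREBP in the endoplasmic reticulum, went from 889, 891 and 799 CPM with Vehicle to 1931, 1751 and 1862 CPM with ISO. In the presence of inhibitors it went the other way, from 1269, 1408 and 1201 CPM to 184, 200.1 and 175 CPM. ISO therefore raised Insig1 in the one case (adjusted p-value 3.61e-11) and lowered it in the other (log2 fold change -2.80 ± 0.08), an interaction of -3.90 ± 0.10 (adjusted p-value 9.96e-17). Vdr, the vitamin D receptor (chr15:97684858-97738727), had 10.6, 11.2 and 12.8 CPM with Vehicle, 90.6, 104 and 83.0 CPM with ISO, 11.4, 12 and 12.3 CPM with Lipase Inh. + Vehicle and 831, 816 and 822 CPM with Lipase Inh. + ISO. Its induction was amplified by 3.09 ± 0.13 on the log2 scale (adjusted p-value 3.24e-13). These 3 genes were given as markers of the interaction, so the separation of their ISO and Lipase Inh. + ISO libraries is no separate evidence.

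**Figure D1:**
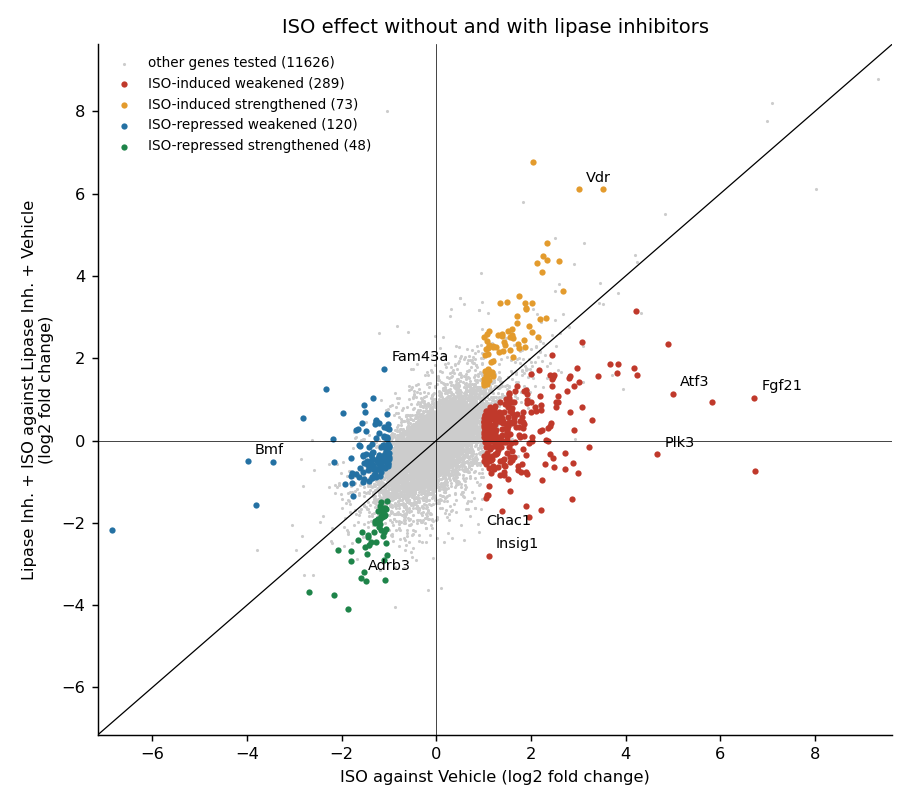
Each point is 1 of 12156 genes, with the log2 fold change of ISO against Vehicle on the horizontal axis and that of Lipase Inh. + ISO against Lipase Inh. + Vehicle on the vertical axis; the line marks equal effects and colours mark the 4 classes with an interaction. Red points (289 ISO-induced genes with a weaker response) lie below the line and orange points (73, stronger response, Vdr among them) above it, whereas blue (120) and green (48) points are ISO-repressed genes with a weaker and a stronger response.

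The promoters of a few of these genes are printed because they differ in the response elements they hold. Each sequence is the 250 bases upstream of the gene's start in the table, read 5′ to 3′ from the mm9 genome on the gene's strand, with matches to the 8 searched motifs in capitals. The motifs, searched on both strands, were the full cAMP response element TGACGTCA, its short form TGACG, the C/EBP-ATF response element read by ATF4 (TGATGNAAN), the sterol regulatory element TCACNCCAC, the ATF6 site TGACGTGG, a pair of heat shock units GAANNTTC, the FOXO core GTAAACA and the E-box CACGTG. Every full element and every ATF6 site also counts as a short form. Fgf21, Atf3 and Chac1 are shown because their capitals include a C/EBP-ATF response element, Dusp8 for its pair of full cAMP response elements, Insig1 as a gene that ISO raised or lowered depending on the inhibitors, and Vdr as the most strengthened gene by the naming rule.
Fgf21: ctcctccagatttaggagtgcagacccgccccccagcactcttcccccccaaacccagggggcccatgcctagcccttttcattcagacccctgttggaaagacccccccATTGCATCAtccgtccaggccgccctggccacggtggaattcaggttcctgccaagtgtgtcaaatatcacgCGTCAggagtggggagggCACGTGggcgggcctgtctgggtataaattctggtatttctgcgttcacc
Atf3: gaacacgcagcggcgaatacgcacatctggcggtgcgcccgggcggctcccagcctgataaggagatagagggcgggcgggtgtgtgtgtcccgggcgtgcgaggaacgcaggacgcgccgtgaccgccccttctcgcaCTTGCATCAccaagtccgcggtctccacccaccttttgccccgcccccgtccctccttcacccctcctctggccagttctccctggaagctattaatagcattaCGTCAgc
Chac1: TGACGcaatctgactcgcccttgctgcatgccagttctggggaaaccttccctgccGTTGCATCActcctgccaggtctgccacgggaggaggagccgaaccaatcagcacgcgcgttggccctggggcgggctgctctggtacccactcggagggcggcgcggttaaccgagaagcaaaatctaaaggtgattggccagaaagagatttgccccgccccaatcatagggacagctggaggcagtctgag
Dusp8: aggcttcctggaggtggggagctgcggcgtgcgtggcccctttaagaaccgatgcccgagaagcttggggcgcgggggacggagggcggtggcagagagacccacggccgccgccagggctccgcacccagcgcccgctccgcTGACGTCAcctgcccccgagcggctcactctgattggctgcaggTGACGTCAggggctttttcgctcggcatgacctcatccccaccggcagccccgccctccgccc
Insig1: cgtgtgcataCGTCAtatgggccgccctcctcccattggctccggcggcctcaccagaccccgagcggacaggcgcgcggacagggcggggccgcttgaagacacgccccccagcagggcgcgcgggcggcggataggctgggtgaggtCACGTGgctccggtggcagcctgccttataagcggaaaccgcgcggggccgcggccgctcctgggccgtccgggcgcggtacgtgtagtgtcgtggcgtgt
Vdr: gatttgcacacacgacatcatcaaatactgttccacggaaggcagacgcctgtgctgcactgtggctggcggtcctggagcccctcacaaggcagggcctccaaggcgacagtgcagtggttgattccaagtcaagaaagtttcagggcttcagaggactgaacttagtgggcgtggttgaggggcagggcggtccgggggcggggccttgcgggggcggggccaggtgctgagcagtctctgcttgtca

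These windows lie at chr7:52870861-52871110 (Fgf21, minus strand), chr1:193007213-193007462 (Atf3, minus), chr2:119176728-119176977 (Chac1, plus), chr7:149281190-149281439 (Dusp8, minus), chr5:28397702-28397951 (Insig1, plus) and chr15:97738728-97738977 (Vdr, minus). The C/EBP-ATF response element starts 140 bases upstream of Fgf21, 111 upstream of Atf3 and 194 upstream of Chac1. The full elements of Dusp8 start 107 and 63 bases upstream. The Vdr window held none of the 8 motifs, which says only that these letters are absent from it. Of 11406 tested genes found by symbol and strand in the GENCODE annotation of the same build, 10316 had a start within 50 bases of an annotated transcript start.

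Over the classes described next, the full cAMP response element occurred in 20 of 289 ISO-induced genes with a weaker response (6.92%), in 3 of 73 with a stronger response (4.11%) and in 11 of 250 with no interaction (4.40%), beside 2.84% of all 12156 promoters. Its short form occurred in 37.0%, 26.0% and 30.4% of these, beside 27.3% of all. In ISO-repressed genes the full element was found in 2 of 120 promoters with a weaker response (1.67%), in 0 of 48 with a stronger response and in 2 of 327 with no interaction (0.612%). The C/EBP-ATF response element was found in 6 of 289 promoters of the weaker ISO-induced genes (2.08%), beside 1.74% of all promoters. It was found in 3 of 48 strengthened ISO-repressed genes (6.25%), in 1 of 120 weakened ones (0.833%) and 7 of 327 with no interaction (2.14%), in 1 of 73 strengthened ISO-induced genes (1.37%) and 7 of 250 with no interaction (2.80%) and, among genes not called with ISO alone, in 6 of 183 with a higher (3.28%) and 10 of 379 with a lower interaction (2.64%). Esrra, whose interaction was above 0, also holds this element in its window. Among all promoters the sterol regulatory element occurred in 0.921%, the ATF6 site in 0.683%, the heat shock pair in 4.89%, the FOXO core in 1.95% and the E-box in 8.37%. In the weaker ISO-induced genes these shares were 1.04%, 0.346%, 4.50%, 2.08% and 11.8%, and the last was 12% in ISO-induced genes with no interaction. These shares are descriptions and were not tested, and the ISO-induced and ISO-repressed genes with no interaction had lower median levels than the other classes.

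Of the 612 ISO-induced genes, 289 (47.2%) responded more weakly with inhibitors (interaction below 0 at an adjusted p-value of 0.05 or less), 73 (11.9%) more strongly and 250 (40.8%) had no interaction by this test. Of the 495 ISO-repressed genes, 120 (24.2%) responded more weakly, 48 (9.70%) more strongly and 327 (66.1%) had none. The weaker ISO-induced genes had a median log2 effect of ISO of 1.41 without and 0.32 with inhibitors. Of the 289, 34 were still called higher with inhibitors, 248 were not called and 7 were called lower. In the 73 strengthened ones the median effect went from 1.40 to 2.43. The weaker ISO-repressed genes had medians of -1.28 and -0.42, and the stronger ones of -1.22 and -2.21. At an absolute interaction of at least 1 on the log2 scale, 175, 35, 47 and 19 genes of the 4 classes remained. Lipase Inh. + Vehicle differed from Vehicle at an adjusted p-value of 0.05 or less in 8, 11, 1 and 3 genes of the 4 classes. For these genes the unstimulated level is part of the interaction.

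Which response predominated depended on the ISO effect used to define the classes. ISO and Vehicle samples enter both the class and the interaction, so the shares in each class are a description and carry no test of their own. When the class was taken from the ISO effect with inhibitors, an alternative chosen after seeing the data, 34 of 660 induced genes were weakened (5.15%) and 355 strengthened (53.8%), and 5 of 928 repressed genes were weakened (0.539%) and 478 strengthened (51.5%). The mean of both ISO effects weighs the 2 settings equally and gave 524 induced genes with 100 weakened (19.1%) and 172 strengthened (32.8%), and 581 repressed genes with 31 weakened (5.34%) and 192 strengthened (33.0%). Weakened genes thus outnumbered strengthened ones among the genes that ISO changed without inhibitors, and the order was turned around under both other choices.

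**Figure D2:**
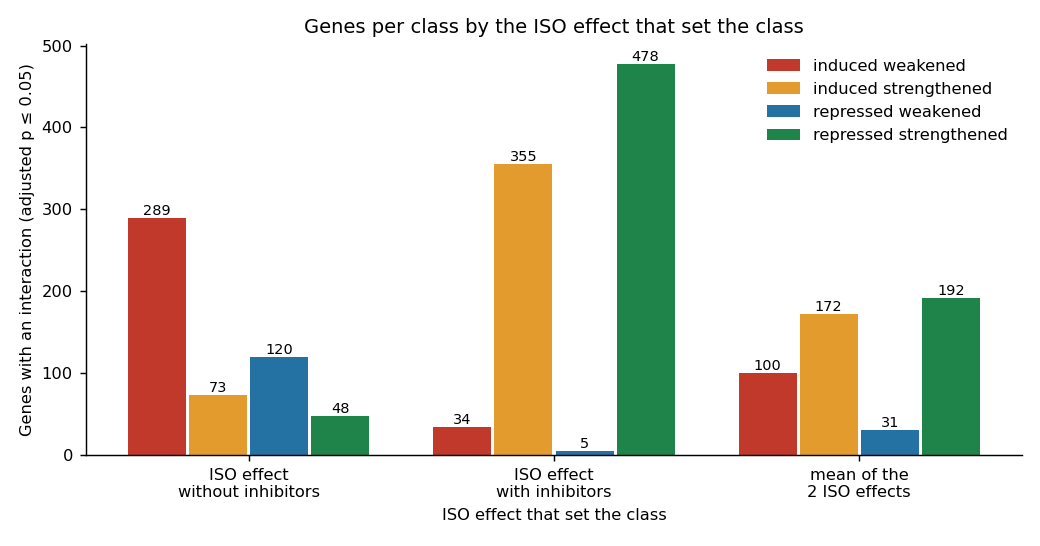
Bars give the number of genes with an interaction at an adjusted p-value of 0.05 or less in each class (vertical axis), for classes set by the ISO effect without inhibitors, with inhibitors or by the mean of both (horizontal axis). Weakened ISO-induced genes number 289, 34 and 100 in the 3 choices, and strengthened ISO-repressed genes 48, 478 and 192.

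The classes also depended on scaling. TMM factors, which correct for RNA composition, differed between the groups, and on total counts alone ISO against Vehicle shifted by -0.31 (log2, median over genes) and the same effect with inhibitors by -0.23. ISO then raised 339 genes and lowered 1191 (22.2% of the calls higher, in place of 55.3%), with inhibitors it raised 439 and lowered 1436 (23.4% in place of 41.6%), and the 4 classes held 151, 44, 301 and 75 genes. All directions given here are relative to these shifts. The interaction moved less, by 0.08, and was called higher in 351 and lower in 492 genes (41.6% higher in place of 31.6%).

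Called interactions were more frequent among genes called with ISO alone, of which 276 of 1107 (24.9%) had one, than among the other genes, of which 562 of 11049 did (5.09%). The ISO and Vehicle samples enter both calls, so the 2 shares are not independent of the grouping and are a description. Because the genes not called with ISO alone made up 90.9% of the genes tested, they still held most of the called interactions. Of 265 genes with a higher interaction, 183 (69.1%) were not called with ISO alone, and of 573 with a lower interaction, 379 (66.1%). Of these 379 genes, 262 were called lower with ISO in the presence of inhibitors, and of the 183, 129 were called higher. The median effect of ISO in the 379 genes was 0.12 without and -1.26 with inhibitors, and in the 183 genes -0.06 and 1.29. These genes were picked for an uncalled ISO effect without inhibitors and a called interaction. Their effects with inhibitors, and the calls among them, thus follow largely from that choice. Cyp2ab1, a cytochrome P450, is the gene of this kind with the largest higher interaction by the naming rule. It had 9.98, 8.66 and 12.5 CPM with Vehicle, 20.8, 17.8 and 20.7 CPM with ISO, 9.70, 5.77 and 10.4 CPM with Lipase Inh. + Vehicle and 149, 157 and 137 CPM with Lipase Inh. + ISO (interaction 3.14 ± 0.27, adjusted p-value 1.02e-08). 2010003K11Rik (2.95 ± 0.19) and Emb, which encodes the chaperone of lactate transporters embigin (2.41 ± 0.30), followed. Without inhibitors ISO raised Cyp2ab1 by 0.94 ± 0.20, 2010003K11Rik by 0.51 ± 0.14 and Emb by 0.96 ± 0.22, below the fold limit. The annotated starts of Cyp2ab1 in GENCODE lie 2339 bases or more from its start in the table.

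Among the genes with a lower interaction that ISO alone did not bring past the threshold, Chac1, a glutathione-degrading enzyme of the ATF4 programme, changed most. It had 40.0, 30.5 and 31.9 CPM with Vehicle and 67.2, 59.7 and 64.5 CPM with ISO, but 33.5, 32.6 and 39.1 CPM with Lipase Inh. + Vehicle and 9.18, 8.24 and 5.73 CPM with Lipase Inh. + ISO. The interaction was -3.13 ± 0.19 (adjusted p-value 5.05e-11). The 3 ISO libraries were the highest and the 3 Lipase Inh. + ISO libraries the lowest of the 12, in a gene picked by the size of its interaction. Zbtb16, a zinc finger transcription factor, had 62.7, 70.4 and 43.7 CPM with ISO and 11, 10.1 and 12.7 CPM with Lipase Inh. + ISO (-2.60 ± 0.20). Osbpl10, of the oxysterol-binding protein family, gave -2.56 ± 0.28. ISO alone raised Chac1 by 0.90 ± 0.12, Zbtb16 by 0.94 ± 0.13 and Osbpl10 by 0.52 ± 0.17, below the fold limit.

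Among weakened ISO-induced genes whose mean level reached 3 on the log2 CPM scale, the limit of the naming rule, the largest interactions were those of Fgf21, Plk3, Insig1, Atf3 and Hspa1a. Atf3 (chr1:192994176-193007212), a stress-inducible transcription factor, had 15, 15 and 12.1 CPM with Vehicle and 424, 593 and 338 CPM with ISO. Lipase Inh. + Vehicle gave 18.5, 18 and 17.3 CPM and Lipase Inh. + ISO 40.7, 37.4 and 40.1 CPM. Atf3 thus still rose with ISO under the inhibitors (1.14 ± 0.16, adjusted p-value 1.88e-06), but far less than without them (5.00 ± 0.16). Plk3, a stress-responsive polo-like kinase, had 28.0, 34.8 and 21.4 CPM with ISO and 1.28 to 2.03 CPM in Lipase Inh. + ISO (interaction -5.00 ± 0.41). Its 2.19 to 2.47 CPM in Lipase Inh. + Vehicle did not differ from the latter by the edgeR test (-0.33 ± 0.30, adjusted p-value 0.359). The Lipase Inh. + ISO values rest on 14 to 40 counts per library. Hspa1a, an inducible HSP70 chaperone, had 253, 307 and 176 CPM with ISO against 17.4, 19.2 and 17.7 CPM in Lipase Inh. + ISO (-3.80 ± 0.30). Hspa1a is nearly identical to its neighbour Hspa1b, so the share of reads given to each is uncertain. Plk3 overlaps Tctex1d4 on the other strand, and whether reads were counted by strand is not stated.

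In the strengthened ISO-induced class, under the same limit on the level, Vdr was followed by Cldn1, Gfpt2, Uap1 and Dos. Cldn1, a claudin of tight junctions, ranged from 3.71 to 3.85 CPM in Vehicle, from 40.2 to 48.8 CPM in ISO, from 1.97 to 3.54 CPM in Lipase Inh. + Vehicle and from 195 to 200.4 CPM in Lipase Inh. + ISO (interaction 2.59 ± 0.21). Gfpt2 and Uap1 encode the enzymes that open and close the hexosamine pathway to UDP-N-acetylglucosamine. Gfpt2 had 20.3, 31.0 and 16.6 CPM with ISO and 158, 170 and 149 CPM with Lipase Inh. + ISO (2.47 ± 0.28), and Uap1 had 300.4, 397 and 244 CPM and 1594, 1682 and 1577 CPM (2.22 ± 0.16). Neither gene was called changed by the inhibitors alone. Dos (2.03 ± 0.17) overlaps Stk11 on the other strand by 252 bases.

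Under the same limit on the level, Bmf led the ISO-repressed genes whose response was weakened. Bmf (chr2:118354493-118375414), a pro-apoptotic BH3-only protein, had 19.9, 15.7 and 22.1 CPM with Vehicle, 0.902, 1.43 and 1.37 CPM with ISO, 22.1, 23.4 and 28.1 CPM with Lipase Inh. + Vehicle and 16.7, 13.0 and 22.0 CPM with Lipase Inh. + ISO. Repression was large without inhibitors (-3.98 ± 0.29) and small with them (-0.49 ± 0.19, adjusted p-value 0.0297), an interaction of 3.49 ± 0.36. Fam43a fell with ISO, from 27.4 to 31.3 CPM down to 12.5 to 15.7 CPM, but rose with inhibitors, from 26.0 to 33.2 CPM up to 102 to 103 CPM (2.85 ± 0.16). Lfng, a glycosyltransferase that modifies Notch, still fell under the inhibitors, to 13.3, 14.4 and 11.1 CPM, though less than the 2.85, 3.36 and 3.05 CPM seen with ISO alone (2.24 ± 0.35). Cracr2b, a regulator of store-operated calcium entry (1.71 ± 0.19), and Elf3, an ETS transcription factor (1.65 ± 0.23), completed the 5. For Elf3 the inhibitors alone lowered the level without ISO (-0.71 ± 0.16, adjusted p-value 0.0262), which is part of its interaction.

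The strengthened ISO-repressed class included the β3-adrenergic receptor itself. Adrb3 (chr8:28336248-28340060), the main receptor for noradrenaline in mouse adipocytes, had 235, 305 and 189 CPM with Vehicle and 82.1, 74.7 and 83.9 CPM with ISO. Lipase Inh. + Vehicle gave 227, 293 and 183 CPM and Lipase Inh. + ISO 23.5, 24.5 and 21.9 CPM. The 2 unstimulated groups overlapped whereas the 2 stimulated groups did not, a description of a gene picked by the size of its interaction. The interaction was -1.73 ± 0.23 (adjusted p-value 3.84e-06). Gprin3 had the largest interaction of this class by the naming rule (-2.32 ± 0.24), with 5.34 to 6.80 CPM in ISO and 1.65 to 2.43 CPM in Lipase Inh. + ISO. Its level without ISO was higher with inhibitors, by 0.71 ± 0.14 (adjusted p-value 0.00856). Strip2 (-1.80 ± 0.13), the tubulin-binding protein gene Tppp (-1.75 ± 0.20) and 4632428N05Rik, which sits within the span of Cdh23 on the other strand (-1.69 ± 0.16), moved likewise.

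**Figure D3:**
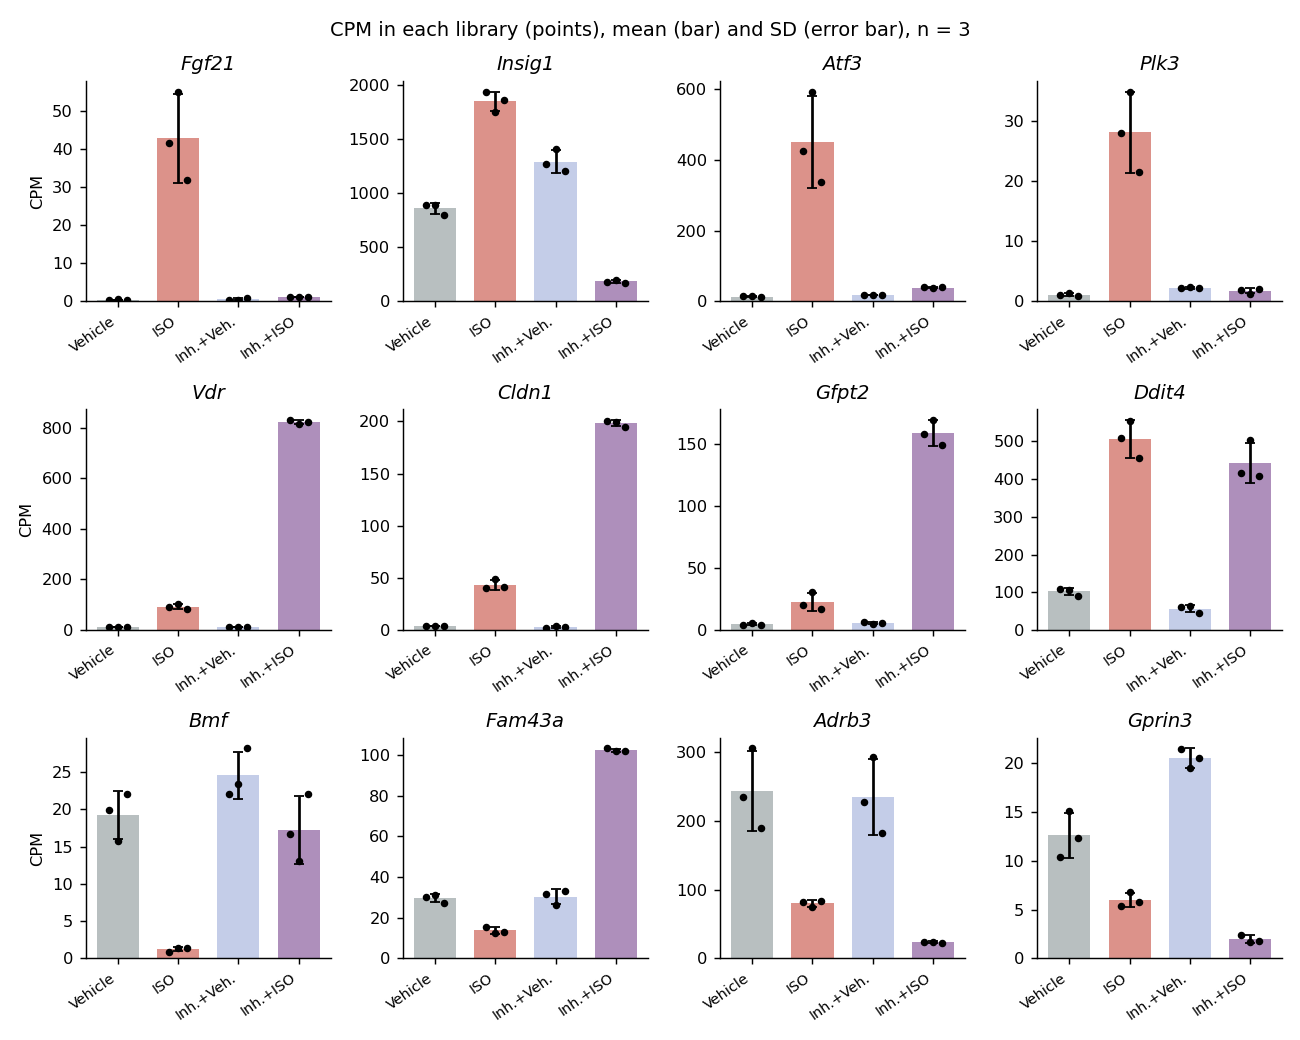
CPM (vertical axis, from 0) of 12 genes in each of the 12 libraries, with points for libraries, bars for the mean and error bars for the SD (n = 3) in Vehicle, ISO, Lipase Inh. + Vehicle (Inh.+Veh.) and Lipase Inh. + ISO (Inh.+ISO). Fgf21, Atf3 and Plk3 are high with ISO only, Vdr, Cldn1 and Gfpt2 are highest with Lipase Inh. + ISO, Bmf is low with ISO only, and Adrb3 is lowest with Lipase Inh. + ISO.

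ISO moved 10 genes past the threshold in opposite directions with and without inhibitors. For 7 of them ISO alone was an inducer and ISO under the inhibitors a repressor, namely Insig1, Extl1, Prdm1, Tmem140, Gramd1b, Fzd5 and Thbs1. Fzd5, a Wnt receptor, had 82.4, 94.5 and 70.9 CPM with ISO and 20.8, 23.9 and 17.0 CPM with Lipase Inh. + ISO (interaction -2.40 ± 0.16). Gramd1b, which carries cholesterol from the plasma membrane to the endoplasmic reticulum, gave -2.43 ± 0.20. Thbs1, the matrix protein thrombospondin 1, had 901, 1002 and 802 CPM with ISO and 230, 215 and 265 CPM with Lipase Inh. + ISO (-2.22 ± 0.15). Fam43a, Htra4 and Fzd9 showed the opposite pair of effects. Prdm1 had at most 19 counts and Htra4 at most 78 counts in any of the 12 libraries, so their directions rest on few reads. Tmem140 overlaps 3110062M04Rik on the other strand.

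Gene lists were then described by how many tested members had an interaction above or below 0, beside 14.9% and 16.6% of all genes. The lists were chosen with earlier results of these data known, and the counts carry no test.

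The integrated stress response, in which phosphorylated eIF2α favours translation of ATF4, showed the most one-sided count. Of 32 genes of the ATF4 list, 29 had an interaction below 0 and 1 above, with median log2 effects of ISO of 0.96 without and 0.00 with inhibitors. The exception, Ddit4, an inhibitor of mTOR signalling, had 510, 555 and 456 CPM with ISO and 417, 503 and 408 CPM with Lipase Inh. + ISO. Its level was therefore not higher under the inhibitors, but its level without ISO was lower (60.2, 63.3 and 45.8 CPM against 109, 106 and 91.1 CPM), so that the interaction of 0.67 ± 0.17 on the log2 scale (adjusted p-value 0.00467) turns to -18.7 CPM as a difference of CPM differences. Of 18 cytosolic heat shock genes 5 were below 0 and 0 above. Among 25 chaperone and degradation genes of the endoplasmic reticulum, 9 were below and 6 above 0. There Xbp1, the transcription factor of the unfolded protein response, rose more with inhibitors (268, 280 and 279 CPM with ISO, 568, 552 and 535 CPM with Lipase Inh. + ISO, interaction 1.02 ± 0.08), whereas its target Dnajb9 rose with ISO alone (384, 348 and 445 CPM, against 122, 118 and 140 CPM in Lipase Inh. + ISO; -1.52 ± 0.19).

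Immediate early transcription factors, which answer to kinases within the first hour, had 16 of 22 members below 0 and 1 above, the latter Klf10 (0.36 ± 0.12). Of the 13 members induced by ISO 10 were weakened. MAP kinase phosphatases and sprouty proteins, the negative feedback of the same kinases, had 10 of 15 members below 0 and 1 above. Dusp8 had 53.5, 60.2 and 46.0 CPM with ISO and 5.76, 7.32 and 6.79 CPM with Lipase Inh. + ISO, the latter within the 5.72 to 9.48 CPM of Lipase Inh. + Vehicle (interaction -3.39 ± 0.23). Dusp14, which ISO lowered, was less lowered with inhibitors (0.59 ± 0.16).

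The list of CREB and cAMP-responsive regulators was split at the adjusted p-value alone. Of 17, 11 were ISO-induced, and 7 had an interaction below and 4 above 0. At an absolute interaction of at least 1 on the log2 scale, 5 were lower and 0 higher. The median effect of ISO over this list was 1.65 without and 1.43 with inhibitors. Nr4a1, an orphan nuclear receptor, had 415, 479 and 348 CPM with ISO and 65.4, 70.7 and 68.9 CPM with Lipase Inh. + ISO, still above its 11.9 to 15 CPM without ISO (interaction -2.56 ± 0.15). Pde4a, a phosphodiesterase that degrades cAMP, had 13.7 to 14.4 CPM in ISO samples and 26.5 to 30.8 CPM in those with Lipase Inh. + ISO (0.99 ± 0.15). ISO alone did not induce Pde4a (log2 effect -0.28 ± 0.11). Brown fat thermogenic genes had 7 of 15 members below and 2 above 0. Their co-activator Ppargc1a had 1063, 1011 and 1167 CPM with ISO and 332, 322 and 325 CPM with Lipase Inh. + ISO, in both cases above the 68.1 to 97.8 CPM without ISO, and the interaction was -1.99 ± 0.12 (adjusted p-value 3.62e-11). The partner receptor Esrra had 113 to 134 CPM in ISO samples and 268 to 328 CPM in those with Lipase Inh. + ISO (1.35 ± 0.28). Esrra overlaps Trmt112 on the other strand by 50 bases.

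PPAR targets had 14 of 28 members below 0 and 4 above. Plin2, which coats lipid droplets, had 1728, 2161 and 1484 CPM with ISO and 172, 167 and 186 CPM with Lipase Inh. + ISO. The latter lay below the 252 to 296 CPM of Lipase Inh. + Vehicle, and the interaction was -3.13 ± 0.16 (adjusted p-value 5.18e-12). The uncoupling protein homologue Ucp3 went the other way (1.05 ± 0.30). Of 17 nuclear receptors 5 were below and 4 above 0, with Ppara, the fatty acid receptor that drives oxidation, at 609, 668 and 579 CPM with ISO and 185, 199 and 165 CPM with Lipase Inh. + ISO (-1.93 ± 0.22), opposite to Vdr. The fatty acid importer Cd36, among the mature adipocyte markers, had -0.79 ± 0.12, and lipoprotein lipase (Lpl) 0.76 ± 0.15. In the list of lipolysis enzymes and droplet coats 4 of 17 were above and 4 below 0. Its lowest member was Pck1, which feeds glyceroneogenesis, with 2288, 1836 and 2560 CPM in ISO and 334, 267 and 437 CPM in Lipase Inh. + ISO (-2.42 ± 0.25).

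Many sterol genes were raised by the inhibitors alone. Of 23 cholesterol synthesis genes and SREBP2 targets tested, 11 were higher in Lipase Inh. + Vehicle than in Vehicle at an adjusted p-value of 0.05 or less and 0 lower (beside 0.485% and 0.428% of all genes tested), with a median log2 difference of 0.51. The interaction was below 0 in 13 and above 0 in 5. Insig1 was the lowest, and Pmvk, phosphomevalonate kinase, the highest, with 77.5, 92.9 and 77.4 CPM in ISO and 240, 289 and 268 CPM in Lipase Inh. + ISO (1.40 ± 0.23). Fatty acid synthesis genes and SREBP1 targets had 10 of 19 members below and 3 above 0, and 6 were higher with inhibitors alone. Thrsp, a lipogenic regulator, had 453, 354 and 528 CPM with ISO and 164, 167 and 153 CPM with Lipase Inh. + ISO (-1.57 ± 0.17), whereas Gpam, which starts glycerolipid synthesis, had 0.68 ± 0.12. Of 10 LXR targets 4 were below 0, among them the phospholipid remodelling enzyme Lpcat3 (-1.12 ± 0.14), and 1 above, the cholesterol exporter Abca1 (0.55 ± 0.15). Lpcat3 overlaps Emg1 on the other strand by 347 bases.

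Hypoxia-inducible factor targets were the list in which interactions above 0 were the most frequent. Of 22, 10 were above and 3 below 0, and here too the unstimulated level differed. Of the 22, 12 members were lower in Lipase Inh. + Vehicle than in Vehicle at an adjusted p-value of 0.05 or less, with a median of -0.39. Ankrd37, an ankyrin repeat protein, had 13.6, 12.6 and 10.9 CPM with Vehicle, 8.38, 8.32 and 5.89 CPM with Lipase Inh. + Vehicle, 16.4, 16.9 and 16 CPM with ISO and 30.3, 30.7 and 31.3 CPM with Lipase Inh. + ISO (1.64 ± 0.23). It overlaps Ufsp2 on the other strand by 49 bases. The vasodilator peptide Adm gave -0.69 ± 0.17. The receptors for lipids and lipolytic signals showed the same lower starting level in 5 of 16 members, with 5 interactions above and 5 below 0. Ffar4, a receptor for long-chain fatty acids, had 108, 112 and 99.4 CPM with Vehicle and 38.2, 43.0 and 34.6 CPM with Lipase Inh. + Vehicle, but 367, 309 and 401 CPM with ISO and 434, 434 and 452 CPM with Lipase Inh. + ISO. Its interaction of 1.76 ± 0.13 thus came mostly from the level without ISO (-1.47 ± 0.10 with inhibitors alone) and less from that with ISO (0.29 ± 0.09).

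The circadian clock list had 11 of 16 members below 0 and 1 above. Rora, a nuclear receptor that activates Arntl, had 64.7, 59.7 and 72.2 CPM with ISO and 16.7, 12.5 and 17.4 CPM with Lipase Inh. + ISO (-2.28 ± 0.19). Arntl itself, which encodes BMAL1, gave 0.48 ± 0.17 (adjusted p-value 0.0331), and this call was lost when any of 6 single libraries was left out. FOXO-type catabolic genes had 12 of 25 members below and 4 above 0, with Bmf as the highest. Growth arrest and p53 targets had 6 of 14 below and 0 above, the Notch pathway 6 of 12 below and 1 above, and extracellular matrix genes 10 of 22 below and 2 above. Mfng, like Lfng a fringe enzyme of the Notch pathway, moved against it, from 22.2 to 30.7 CPM with ISO to 6.84 to 7.96 CPM with Lipase Inh. + ISO (-1.69 ± 0.18). Loxl1, which cross-links elastin, gave 1.09 ± 0.16. Of 14 cytokines and chemokines 2 were above and 2 below 0, Socs3, an inhibitor of cytokine signalling, with 27.0 to 36.9 CPM in ISO and 67.4 to 81.7 CPM in Lipase Inh. + ISO (1.33 ± 0.17), and Ptgs2, a prostaglandin synthase, with -0.77 ± 0.23 (adjusted p-value 0.0153). The last call was lost without Lipase Inh. + Vehicle replicate 2 or Lipase Inh. + ISO replicate 3, and that of Klf10 without any of 4 libraries.

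**Figure D4:**
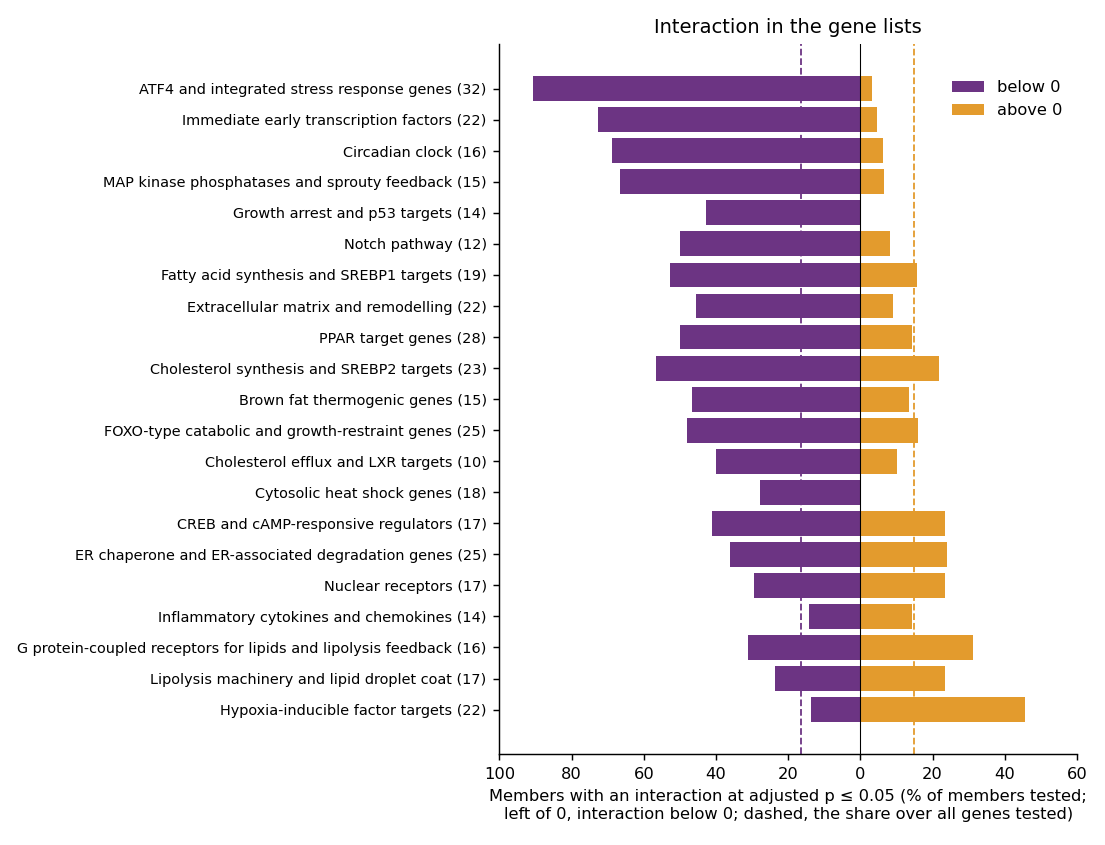
For each gene list (number of tested members in parentheses), bars give the percentage of members with an interaction below 0 (purple, to the left) or above 0 (orange, to the right) at an adjusted p-value of 0.05 or less; dashed lines mark the shares of 16.6% and 14.9% over all genes tested. The ATF4 list (29 of 32 below 0) is the most one-sided, and the hypoxia list (10 of 22 above 0) is the one that leans furthest to the right.

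SR-3420, which activates ATGL without a receptor, offered a readout of the inhibitors that shares no sample with the 4 groups of the interaction. Lipase Inh. + SR-3420 against SR-3420 was called higher in 188 genes (1.55%) and lower in 313 (2.57%). Of the 289 weakened ISO-induced genes 144 were lower in this comparison (49.8%) and 0 higher, with a median log2 difference of -1.01. Of the 250 ISO-induced genes with no interaction 69 were lower (27.6%, median -0.75), and of the 73 strengthened ones 10 were lower (13.7%) and 1 higher (median -0.47). For the ISO-repressed genes the inhibitors raised 31 of 120 weakened ones (25.8%, median 0.70), 11 of 48 strengthened ones (22.9%, median 0.73) and 63 of 327 with no interaction (19.3%, median 0.70), and lowered 0, 0 and 0. Genes with no interaction had lower median levels with Vehicle, as given above, and the shares were not compared at equal level. The second replicate of Lipase Inh. + SR-3420 had only 4263755 counts, of which 18.3% fell on Lars2 (0.0397% to 0.121% in the other 17 libraries), and without it 138 of the 289 weakened ISO-induced genes were lower and 29, 10 and 60 of the ISO-repressed genes were higher.

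In both strengthened classes the median inhibitor effect with SR-3420 thus had the opposite sign to that with ISO, which was 0.80 for the ISO-induced and -0.73 for the ISO-repressed genes. The sign with ISO follows largely from the rule that set these classes. The sign with SR-3420 was not particular to them, as it was shared by the weakened genes and those with no interaction. The difference between the inhibitor effect with ISO and that with SR-3420, a comparison chosen after seeing the data, was called higher in 355 genes (2.92%) and lower in 540 (4.44%). It was higher in 53 of the 73 strengthened ISO-induced genes and lower in 45 of the 48 strengthened ISO-repressed genes, counts that are not independent of the classes because the ISO samples enter both. Among the 289 weakened ISO-induced genes, 36 differed downwards and 14 upwards. For Adrb3 the inhibitors changed the level by -1.79 ± 0.17 with ISO and by 1.77 ± 0.15 with SR-3420, a difference of -3.56 ± 0.23 (adjusted p-value 2.40e-10). Vdr, which SR-3420 did not move past the test (-0.02 ± 0.10), was changed by 3.15 ± 0.08 with ISO and by -0.11 ± 0.11 with SR-3420 (difference 3.26 ± 0.13, adjusted p-value 3.43e-13). Fgf21 was lower with inhibitors in both cases (-5.10 ± 0.26 and -4.55 ± 0.26), and the difference of -0.55 ± 0.44 did not pass the test (adjusted p-value 0.368). Insig1 was changed by -3.31 ± 0.08 with ISO and by -0.68 ± 0.07 with SR-3420 (difference -2.64 ± 0.10, adjusted p-value 2.36e-13).

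**Figure D5:**
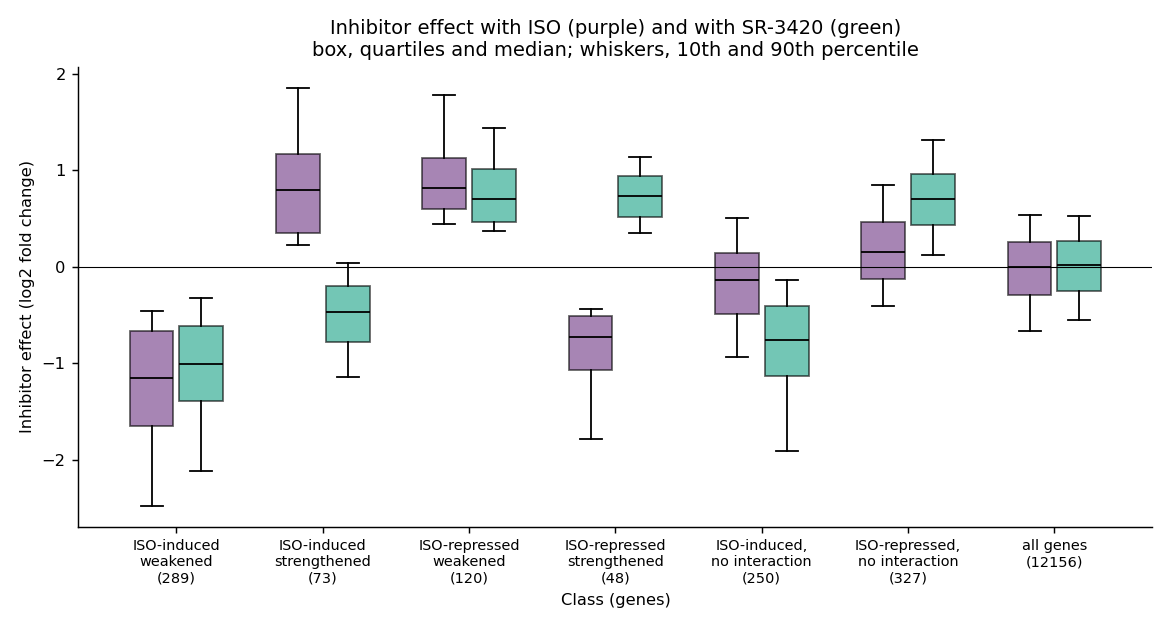
Boxes give the quartiles and median, and whiskers the 10th and 90th percentile, of the log2 difference made by the inhibitors with ISO (purple, Lipase Inh. + ISO against ISO) and with SR-3420 (green, Lipase Inh. + SR-3420 against SR-3420), for the genes of each class. Purple and green point the same way in both weakened classes and opposite ways in both strengthened classes, where the green medians are -0.47 and 0.73; only the green boxes are free of the samples that set the classes.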

How the data were processed

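RNA-seq libraries of 18 samples were aligned by the authors to mm9 with STAR 2.4.2a and counted per RefSeq gene with iRNA-seq after HOMER had made tag directories. The deposited table holds raw, whole-number counts per gene. The methods of the study speak of keeping 1 read per position and length, yet 839 genes exceed 2 counts per counted base in a library, so this limit was evidently not applied to these counts or read lengths varied. Whether strand was used is not given in the sources used here. Gene starts, deposited with a first base of 0, are printed with a first base of 1.

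Groups were taken from titles and columns from the sample number in the descriptions, with 0 columns of other samples. By the study's account the libraries come from 3 separate experiments, and the labels do not say whether samples with the same number share one. The fit was made with edgeR 4.0.16 (R 4.3.3), using filterByExpr defaults (minimum count 10, minimum total 15), TMM factors and 1 quasi-likelihood model with a mean per group over all 18 samples, which share 1 estimate of the spread. The Benjamini-Hochberg adjustment covered 12156 genes. Thresholds are those of the study, which used DESeq2, here an alternative (version 1.42.0). SE values come from the fold change and its F statistic, and CPM values from TMM-scaled libraries. The model was tested on simulated counts.

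The members and lists were chosen with earlier results of these data known. Genes named are Vdr, Insig1 and Fgf21, the 5 with the largest interaction in each class and the 3 per direction among genes not called with ISO alone (adjusted p-value at most 0.05, absolute interaction at least 1, average log2 CPM at least 3), and the highest and lowest member of each list with an interaction. 1 gene that this rule names is not reported here. The 10 genes that ISO moved in opposite directions were added after seeing the data. The alternatives were RLE factors, total counts, other filters, DESeq2, the replicate block, the 12 samples alone, each sample left out, thinning, removal of genes over 0.5 counts per counted base and other class definitions.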

Additional observations from a re-analysis of the deposited data

Results flagged for a closer look

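The test of the interaction compares the effects of ISO in 2 settings, and the genes named in the report at an adjusted p-value of 0.05 or less by edgeR differed between them. The values below are the interaction on the log2 scale, with ISO acting more towards higher levels under the inhibitors where it is above 0.

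Among ISO-induced genes with a weaker response, the values were Insig1 (-3.90), Fgf21 (-5.68), Plk3 (-5.00), Atf3 (-3.86), Hspa1a (-3.80), Nr4a1 (-2.56), Dusp8 (-3.39), Ppargc1a (-1.99), Plin2 (-3.13), Dnajb9 (-1.52), Pck1 (-2.42), Rora (-2.28), Adm (-0.69), Thbs1 (-2.22), Ppara (-1.93), Fzd5 (-2.40), Prdm1 (-3.09), Extl1 (-3.48), Gramd1b (-2.43) and Tmem140 (-2.44). ISO-induced genes with a stronger response gave Vdr (3.09), Cldn1 (2.59), Gfpt2 (2.47), Uap1 (2.22), Dos (2.03), Ddit4 (0.67), Arntl (0.48) and Ffar4 (1.76). ISO-repressed genes responded more weakly in the case of Bmf (3.49), Fam43a (2.85), Lfng (2.24), Cracr2b (1.71), Elf3 (1.65), Htra4 (3.57) and Fzd9 (2.38). A stronger repression was found for Gprin3 (-2.32), Strip2 (-1.80), Tppp (-1.75), Adrb3 (-1.73) and 4632428N05Rik (-1.69). Of the genes that ISO alone did not bring past the threshold, the interaction was above 0 for Cyp2ab1 (3.14), 2010003K11Rik (2.95), Emb (2.41), Pde4a (0.99), Klf10 (0.36), Dusp14 (0.59), Esrra (1.35), Ucp3 (1.05), Xbp1 (1.02), Pmvk (1.40), Gpam (0.68), Abca1 (0.55), Lpl (0.76), Ankrd37 (1.64), Socs3 (1.33) and Loxl1 (1.09). It was below 0 for Chac1 (-3.13), Zbtb16 (-2.60), Osbpl10 (-2.56), Thrsp (-1.57), Lpcat3 (-1.12), Mfng (-1.69), Ptgs2 (-0.77) and Cd36 (-0.79).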

How the results depend on the processing

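The counts of called interactions (265 higher, 573 lower) stayed within 1.5 times under RLE factors, total counts, other filters, DESeq2 (256 and 561), the 12 samples alone, thinning and removal of genes over 0.5 counts per counted base. The size of the classes was less stable. In the order of weakened and strengthened ISO-induced and weakened and strengthened ISO-repressed genes (289, 73, 120 and 48), total counts gave 151, 44, 301 and 75, the class from the mean of both ISO effects 100, 172, 31 and 192, the class from the ISO effect with inhibitors 34, 355, 5 and 478, and a limit of 1 on the absolute interaction 175, 35, 47 and 19. Removing the 3481 tested genes over 0.5 counts per counted base left 156 and 29 ISO-induced and 29 strengthened ISO-repressed genes, and 2 in place of 6 genes changed by the inhibitors alone, with fewer genes tested (8697) by construction.

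With single samples left out, the interaction was called higher in 244 to 303 and lower in 538 to 606 genes, and the 4 classes held 260 to 318, 64 to 74, 105 to 137 and 39 to 49. Lipase Inh. + ISO against ISO gave 809 to 852, the inhibitors alone 4 to 8, Lipase Inh. + SR-3420 against SR-3420 462 to 531 and the difference between the inhibitor effects with ISO and with SR-3420 832 to 946 genes.

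The replicate numbers 1 to 3 recur in every group. After subtraction of group means, samples with the same number correlated at -0.0255 on average for number 1, 0.163 for number 2 and 0.189 for number 3. All pairs of number 3 lay between 0.150 and 0.262, whereas the lowest pairs of numbers 1 and 2 were at -0.108 and 0.0745, and 8 of 12 samples correlated best with a sample of their own number. Numbers 2 and 3 thus showed a shared component, but not every pair was over 0.1, the condition set for taking the numbers as pairs, and the labels do not tie them to the study's 3 experiments. With the number as a replicate block, 288 genes were higher, 589 lower, and the classes held 310, 78, 134 and 56, all within 1.5 times, and the 58 genes tried singly kept their calls.

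For the 58 genes tried singly under 1240 combinations of gene and alternative, 1227 kept direction and side of the threshold. Klf10, Arntl and Ptgs2 lost their calls in 12 cases, all with 1 sample left out. Ddit4 turned to -18.7 as a difference of CPM differences. Genes with few counts, such as Prdm1 and Htra4, are limited by depth. SE values come from 1 fit over all 18 samples, with 3 per group, and do not measure the spread within a single group.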
